A study of Mus musculus with 102 samples.

Results

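The 36 genes described here act on DNA damage of the kind cisplatin makes, and were read in sorted spinal microglia of mice given cisplatin. They were picked by gene symbol and role, with earlier results of these data known. Shares of the 36 set beside all genes are therefore descriptions. Each symbol was found once in the deposited tables, 36 of 36 among 53715 genes with raw counts. By role they form 8 classes: 5 Fanconi core or anchor proteins, the 2 proteins of the Fanconi ID complex, 6 proteins that act downstream of it in unhooking and recombination, 6 that recognise damage for nucleotide excision repair, 6 that open or cut the strand there, 2 of mismatch repair, 4 of translesion synthesis and 5 of checkpoint or damage signalling. All 36 passed the filter on low counts, which left 20461 genes to test.

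RNA was sequenced from FACS-sorted resident microglia of the lumbar spinal cord, in 17 numbered samples of 2 genotypes. The ABC-imKO mice (Abca1 fl/fl Abcg1 fl/fl Cx3cr1-CreERT2, called KO) carry floxed alleles of a pair of cholesterol exporters and an inducible Cre recombinase driven by the Cx3cr1 promoter, which is active in microglia and in monocytes. The other mice were WT. In each genotype a cisplatin AIBP group received cisplatin intraperitoneally on days 1 and 3 and AIBP intrathecally on day 7, a cisplatin saline group received the same cisplatin with intrathecal saline on day 7, and a naive group had no treatment, so any comparison with naive mice also holds the injections. AIBP is the apolipoprotein A-I binding protein, a secreted protein that speeds cholesterol efflux. Each group had 3 samples except WT cisplatin AIBP, which had 2 (numbers 7 and 9). Nothing in the labels tells if a number stands for 1 animal or for several pooled, and the ages and the doses are not given in the sources used here.

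Cisplatin forms adducts with purines, some within a strand and some that tie the strands together. Adducts within a strand are removed mainly by nucleotide excision repair, in which damage is recognised, the helix is opened by TFIIH and the strand is cut on either side of the lesion. Crosslinks between strands are handled during DNA replication by the Fanconi pathway and homologous recombination, with translesion polymerases filling the gaps, while the ATR and CHK1 kinases restrain the cell cycle. Adult microglia rarely divide at rest but can divide after injury, and many Fanconi, recombination and checkpoint genes are transcribed mainly in dividing cells.

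The samples held 45.1 to 76.6 M counts each, from 3 technical replicate libraries apiece, and 18791 to 21467 genes were detected. The labelled cell type was visible in every sample: 11 microglia markers summed to 21100 to 60800 CPM (counts scaled to a common library total, with TMM factors for composition). Abca1 did not separate the genotypes, at 66.1 to 105 CPM in KO naive and 87.3 to 114 CPM in WT naive samples, and neither did Abcg1 after cisplatin, at 50.9 to 68.4 CPM in KO cisplatin saline and 42.7 to 65.7 CPM in WT cisplatin saline samples. In naive mice Abcg1 lay lower in KO, at 41.6 to 66.4 CPM, against 91.7 to 160 CPM in WT, without passing the test (log2 difference -1.13 ± 0.32, adjusted p = 0.789). Which exons are floxed is not given in the sources used here, so reads over the whole gene do not check the deletion. Cx3cr1, the gene whose promoter drives the Cre, was at 1720 to 4870 CPM in the KO naive and KO cisplatin saline samples, at 5250 to 7080 CPM in the samples labelled KO cisplatin AIBP and at 5530 to 10700 CPM in WT samples. The samples labelled KO cisplatin AIBP thus stood with WT cisplatin saline samples for this gene, and KO below means the label. Cx3cr1 is also a microglia marker, and sorted bulk RNA cannot tell fewer cells of a type from less RNA per cell.

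In untreated WT mice 4 of the 5 most abundant genes were nucleotide excision genes, and the 4 scarcest were Fanconi and recombination genes, while both classes spread widely in between. On a scale per length (CPM per kb of exon, means over the 3 WT naive samples), the highest of the 36 was Parp1 at 20.2, an enzyme that marks strand breaks with poly(ADP-ribose). Xpa, which verifies the lesion, followed at 18.7, the damage sensor subunit Ddb1 at 13.8, the nuclease gene Ercc5 at 10.9 and Ercc1, a subunit of the other nuclease, at 10.8. These were the 5 genes at 10 CPM per kb or more. Of the rest, 19 stood between 1 and 10 and 8 between 0.1 and 1. The 4 genes under 0.1 CPM per kb were Brca1 at 0.0708, Brip1 at 0.062, Fancd2 at 0.0493 and Fanci at 0.036. Of the excision genes, Ercc6, a factor of the transcription-coupled branch, was as low as 0.224 and the TFIIH helicase gene Ercc2 was at 0.592, whereas the Fanconi core genes Fancg and Fancl were at 3.48 and 3.42. This order is one of means, and single samples varied: Parp1 spanned 70.4 to 132 CPM in WT naive and 98.6 to 120 CPM in KO naive samples. The scarce genes were also read unevenly. Across the 51 libraries Fanci had a count of 0 in 24, Fancd2 in 18, Brca1 in 11 and Brip1 in 8, while 21 of the 36 genes were counted in every library.

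**Figure D1:**
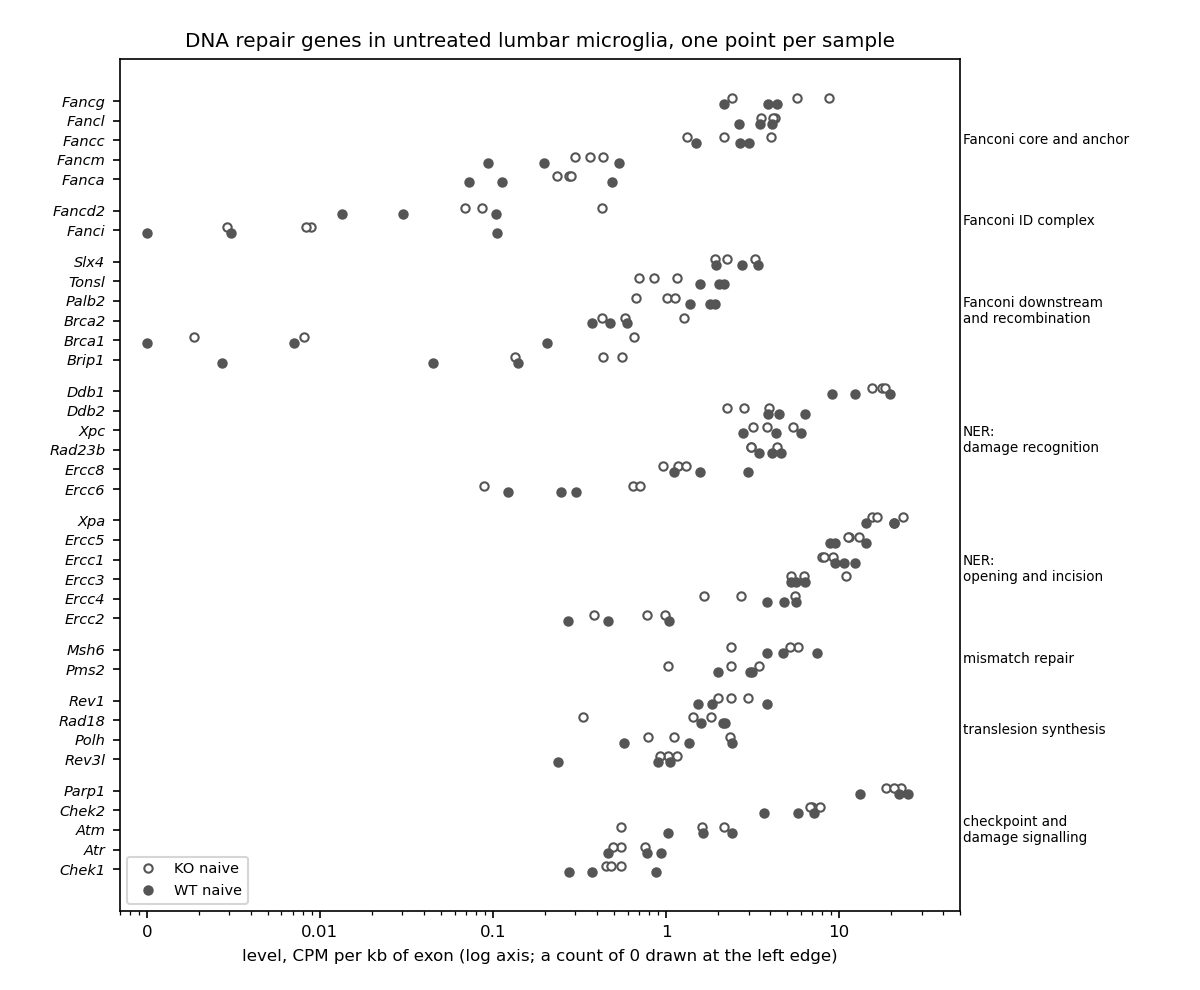
Level of each of the 36 repair genes in untreated mice, in CPM per kb of exon on a log axis, with 1 point per sample, open for KO naive and filled for WT naive, and genes grouped by class. Counts of 0 are drawn at the left edge. In WT naive samples Parp1, Xpa, Ddb1, Ercc5 and Ercc1 have the highest means and Brca1, Brip1, Fancd2 and Fanci the lowest, and the excision genes Ercc2 and Ercc6 lie among the scarce genes.

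After cisplatin and saline, WT microglia had more RNA of the checkpoint kinase Chek1 and of the recombination genes Brca2 and Brip1 than naive WT microglia had, while the genes that open and cut the strand in nucleotide excision stayed close to their naive levels. The 3 rises made up 8.33% of the 36 genes, beside 1.95% of all genes tested that rose in this comparison. None of the 36 fell, beside 0.953% of all genes. At an unadjusted p under 0.05 edgeR gave 8 genes (22.2%, beside 17.6% of all genes). By adjusted p DESeq2 gave 5 (13.9%, beside 11.4% of all genes it tested) and limma-voom 2 (5.56%, beside 3.28%). The median log2 fold change was 0.40 over the 36 genes and -0.01 over all genes, with 23 positive and 13 negative values. In a fit of only these 2 groups 0 of 36 passed (Chek1 adjusted p = 0.0814). The share of all genes called in that fit is not given here, so this 0 describes only the loss of the 3 calls.

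Chek1 encodes CHK1, the kinase that ATR activates when replication forks stall. Its level was 12.1, 22 and 11.3 CPM in WT cisplatin saline samples, against 1.27, 1.73 and 4.04 CPM in WT naive samples. The groups did not overlap, and the lowest treated sample was above the highest naive one. The log2 fold change was 2.69 ± 0.53 (SE; a 6.45-fold rise; edgeR quasi-likelihood test, Benjamini-Hochberg adjusted p = 0.0143). Chek1 lies at chr9:36708482-36727065 on the minus strand (GRCm38) and shares no exon bases with another gene. The call was lost without WT naive sample 1 (adjusted p = 0.0668), WT naive sample 2 (0.0663) or WT cisplatin saline sample 5 (0.0773), with the log2 fold change between 2.32 and 2.51. It was also lost without technical replicate 2 (0.247) or 3 (0.122) of every sample.

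Brca2 encodes a mediator protein of homologous recombination (chr5:150522630-150570329, plus strand). It was at 23, 38.2 and 20.8 CPM in WT cisplatin saline samples, against 6.49, 5.09 and 8.15 CPM in WT naive samples. Again every treated sample lay above every naive one. The log2 fold change was 2.05 ± 0.47 (4.15-fold; adjusted p = 0.0299), and leaving out any single WT sample of this comparison except cisplatin saline sample 4 put the adjusted p at 0.0571 to 0.147. Brca2 also missed the threshold with limma-voom (adjusted p = 0.056) and without any 1 of the 3 technical replicates (0.0566 to 0.207).

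Brip1 encodes the FANCJ helicase, a partner of BRCA1 (chr11:86058138-86201193, minus strand). It was at 19.6, 8.2 and 6.29 CPM in WT cisplatin saline samples, against 0.0202, 1.03 and 0.334 CPM in WT naive samples. The groups stood far apart, but the naive values rest on 1, 58 and 21 counts, and 57 of the 58 in WT naive sample 2 came from a single technical library. The log2 fold change was 4.61 ± 1.15 (adjusted p = 0.0442). Leaving out WT naive sample 1 gave 4.05 (adjusted p = 0.102), WT naive sample 3 gave 4.42 (0.138), and leaving out WT cisplatin saline sample 4, 5 or 6 gave 3.96 to 4.90 (0.0735 to 0.103). Without technical replicate 1 or 2 of every sample the adjusted p was 0.0895 or 0.304.

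The promoters of these 3 genes are shown because many genes that rise as cells enter DNA synthesis carry E2F sites there. Each line is 250 bases before to 50 after the RefSeq start (GRCm38.p6), read 5′ to 3′ on the gene's strand, with matches to TTTNNCGC or GCGGGAA on either strand in capitals: chr9:36726609-36726908 (minus) for Chek1, chr5:150522371-150522670 (plus) for Brca2 and chr11:86201144-86201443 (minus) for Brip1.
Chek1: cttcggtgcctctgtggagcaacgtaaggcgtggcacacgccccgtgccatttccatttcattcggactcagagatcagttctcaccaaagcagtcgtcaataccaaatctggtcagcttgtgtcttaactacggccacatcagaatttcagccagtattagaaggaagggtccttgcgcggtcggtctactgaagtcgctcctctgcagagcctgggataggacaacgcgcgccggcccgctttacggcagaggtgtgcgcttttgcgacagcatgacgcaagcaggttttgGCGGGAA
Brca2: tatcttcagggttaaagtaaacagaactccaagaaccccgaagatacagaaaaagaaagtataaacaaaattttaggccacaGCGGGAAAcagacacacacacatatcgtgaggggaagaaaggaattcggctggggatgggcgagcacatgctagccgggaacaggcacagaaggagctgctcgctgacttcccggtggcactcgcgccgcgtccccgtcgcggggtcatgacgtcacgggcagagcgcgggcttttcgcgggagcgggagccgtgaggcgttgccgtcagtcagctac
Brip1: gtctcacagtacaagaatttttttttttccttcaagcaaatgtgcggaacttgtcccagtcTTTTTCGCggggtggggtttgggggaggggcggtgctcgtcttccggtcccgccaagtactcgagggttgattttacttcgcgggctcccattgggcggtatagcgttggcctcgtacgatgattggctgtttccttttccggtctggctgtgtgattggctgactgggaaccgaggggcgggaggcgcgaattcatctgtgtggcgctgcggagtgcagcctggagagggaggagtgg
The Chek1 window ends in GCGGGAA, the Brca2 window holds both motifs overlapping in a single stretch, and the Brip1 window holds TTTNNCGC alone. Promoters were found for 30 of the 36 genes (31 windows, since Rad18 has 2), and Rev3l, Tonsl, Xpc, Fancd2, Ddb2 and Ercc3 had no entry. TTTNNCGC occurred in 6 of the 31 (19.4%), against 5.17% of all 32851 promoters of the same length. GCGGGAA occurred in 9 of the 31 (29%), against 4.6% of all promoters. The genes with either motif were Brca2, Brip1, Chek1, Chek2, Ercc5, Fancg, Fanci, Fancm, Msh6 and Atm, so genes that changed and genes that did not both carried it. Further motifs were counted in the same windows. CCAAT, the NF-Y box, occurred in 17 of the 31 (54.8%, against 37.4% of all promoters). TTTGAA, the CHR element, occurred in 1 of the 31 (3.23%, against 17.9% of all promoters). A match describes these letters only.

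By class, the Fanconi and recombination genes had the larger values and the excision genes the smaller. In WT cisplatin saline over WT naive, median log2 fold changes were 1.14 for the Fanconi core, 2.62 for the ID complex, 1.43 for the downstream genes, 0.62 for translesion synthesis, 0.55 for mismatch repair, 0.24 for checkpoint genes, -0.38 for damage recognition and -0.16 for opening and incision. The 6 opening and incision genes spanned only -0.31 to 0.13, beside -0.72 to 4.61 for the 6 downstream genes. Summed per sample, the 6 downstream genes ran from 86.5 to 122 CPM in WT cisplatin saline and from 44.3 to 57.5 CPM in WT naive samples, without overlap. The 6 opening and incision genes summed to 132 to 177 CPM in WT cisplatin saline and 151 to 214 CPM in WT naive samples, which overlap.

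Several Fanconi genes stood higher in every treated WT sample without passing the test. Fanca, a scaffold of the core ubiquitin ligase, was at 5.79, 8.92 and 6.15 CPM in WT cisplatin saline samples, against 0.991, 4.25 and 0.637 CPM in WT naive samples. The groups did not overlap, and the log2 fold change was 1.83 ± 0.60 (adjusted p = 0.132). The naive sample at 4.25 CPM weighed on this value: without WT naive sample 2 it was 3.09 (adjusted p = 0.0121). In all, 9 of the 36 genes lay above naive without overlap (25% of the genes, beside 12% of all genes tested): Fanca, Fancg, Fancm, Brip1, Brca1, Brca2, Tonsl, Rad18 and Chek1. None lay below without overlap, beside 10.7% of all genes.

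Fancd2, which the core ligase ubiquitinates, was at 4.32, 2.52 and 0.0163 CPM in WT cisplatin saline samples, against 0.829, 0.107 and 0.239 CPM in WT naive samples. WT cisplatin saline sample 6 was below all naive samples, so the groups overlapped and the 2.54 ± 1.36 log2 difference did not pass (adjusted p = 0.341). Brca1, the ubiquitin ligase that works with BRCA2 in recombination, was at 6.55, 16.4 and 8.83 CPM in WT cisplatin saline samples, against 0.0606, 0 and 1.75 CPM in WT naive samples. The groups did not overlap, yet at these counts the error was wide (4.12 ± 1.88, adjusted p = 0.274).

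Rad18 and Msh6, from translesion synthesis and mismatch repair, also stood higher. Rad18, the ligase that marks PCNA for polymerase exchange, was at 18.7, 29.1 and 21.4 CPM in WT cisplatin saline samples, against 12.3, 9.29 and 12.7 CPM in WT naive samples. It did not overlap, at 1.01 ± 0.48 (adjusted p = 0.29). Msh6, a mismatch recognition protein, was at 50.1, 49.2 and 29.3 CPM in WT cisplatin saline samples, against 20.7, 32.3 and 16.6 CPM in WT naive samples. Sample 6 lay among the naive ones, and the log2 difference of 0.88 ± 0.34 did not pass (adjusted p = 0.207).

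The excision genes all overlapped between WT cisplatin saline and WT naive samples. Mean Ercc8 was 7.24 CPM in WT cisplatin saline and 14.5 CPM in WT naive samples, and mean Xpc was 15.2 and 24 CPM. Rad23b (means of 32.5 and 23.2 CPM) and Ddb1 went the other way. Ddb1 was at 105, 115 and 174 CPM in WT cisplatin saline samples, against 58.4, 79 and 127 CPM in WT naive samples, with overlap (0.57 ± 0.30, adjusted p = 0.33). Ercc5, which encodes the nuclease XPG, was at 64.2, 34.8 and 55.2 CPM in WT cisplatin saline samples, against 83.8, 51.7 and 55.5 CPM in WT naive samples. These overlapped too (-0.31 ± 0.30, adjusted p = 0.628). Among the signalling genes other than Chek1, log2 differences were 0.80 for Chek2, 0.24 for Parp1, -0.08 for Atr and -0.10 for Atm, and none passed.

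**Figure D2:**
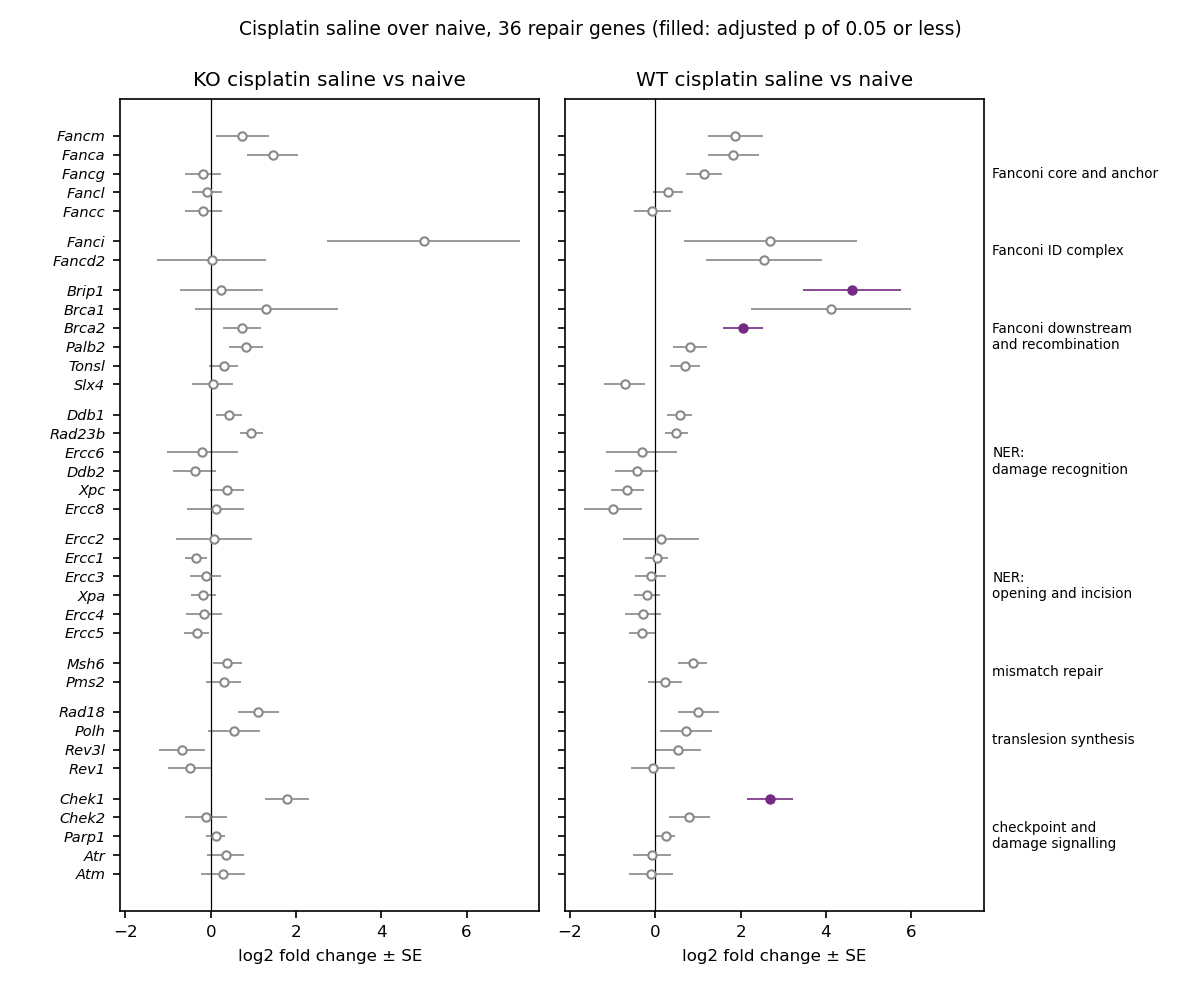
Log2 fold change of cisplatin saline over naive with its SE for the 36 repair genes, in KO (left) and WT (right), grouped by class and ordered by the WT value. Filled points have an adjusted p of 0.05 or less. Chek1, Brca2 and Brip1 are filled in WT and no point is filled in KO, and the opening and incision genes stay near 0 in both.

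In KO microglia, cisplatin with saline moved none of the 36 genes past the threshold. That was 0 of 36, beside 2.42% of all genes that rose and 1.99% that fell in KO (4.41% in either direction). At an unadjusted p under 0.05 edgeR gave 5 genes (13.9%, beside 18.1% of all genes). By adjusted p DESeq2 gave 3 (Chek1, Fanci and Rad23b; 8.33%, beside 13.3% of all genes it tested) and limma-voom 0 (beside 6.03%). The median log2 fold change was 0.18 over the 36 genes and -0.04 over all genes, again with 23 positive and 13 negative values.

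Rad23b and Chek1 came closest. Rad23b, which stabilises the lesion sensor XPC, was at 40.5, 33.7 and 43.1 CPM in KO cisplatin saline samples, against 17.8, 17.8 and 25.2 CPM in KO naive samples. The groups did not overlap (0.95 ± 0.27, adjusted p = 0.0611). In WT it was at 20.4, 40.9 and 36.3 CPM after cisplatin saline, against 26.3, 19.7 and 23.5 CPM in naive samples, which overlap (0.49 ± 0.27, adjusted p = 0.347). Chek1 was at 3.5, 10.6 and 9.64 CPM in KO cisplatin saline samples, against 2.1, 2.24 and 2.54 CPM in KO naive samples. All treated samples lay above the naive ones, with sample 4 the lowest (1.79 ± 0.51, adjusted p = 0.0637). Without KO cisplatin saline sample 4 the value was 2.17 and passed (adjusted p = 0.0273).

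Fanca and Rad18 stood apart in KO too, with no pass. Fanca was at 4.56, 7.84 and 6.52 CPM in KO cisplatin saline samples, against 2.41, 2.07 and 2.46 CPM in KO naive samples (1.45 ± 0.59, adjusted p = 0.209). Rad18 was at 17.6, 13.8 and 13.9 CPM in KO cisplatin saline samples, against 8.32, 10.5 and 1.93 CPM in KO naive samples (1.12 ± 0.48, adjusted p = 0.235). Fanci, the partner of FANCD2, was at 0.753, 0.111 and 3.02 CPM in KO cisplatin saline samples, against 0.0516, 0.0167 and 0.0482 CPM in KO naive samples. These values rest on 303 and 7 counts in all, and 4.99 ± 2.27 did not pass (adjusted p = 0.263). In KO, 5 of the 36 genes (13.9%, beside 12% of all genes) lay above naive without overlap and 2 (Ercc5 and Rev3l; 5.56%, beside 11.5%) lay below.

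Palb2, Msh6 and Ercc1 overlapped between the KO groups. Palb2, the bridge between BRCA1 and BRCA2, was at 7.29, 13.8 and 15.3 CPM in KO cisplatin saline samples, against 4.95, 7.46 and 8.26 CPM in KO naive samples (0.82 ± 0.40, adjusted p = 0.301). Msh6 was at 19.3, 29.2 and 27.9 CPM in KO cisplatin saline samples, against 10.4, 25.1 and 22.6 CPM in KO naive samples (0.39 ± 0.34, adjusted p = 0.588). Ercc1 was at 18.3, 27.3 and 16.7 CPM in KO cisplatin saline samples, against 24.8, 25.6 and 28.7 CPM in KO naive samples (-0.34 ± 0.26, adjusted p = 0.527). In each, at least 1 treated sample lay within the naive range.

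The cisplatin responses of KO and WT microglia were not shown to differ for any of the 36 genes. Tested as an interaction (the KO log2 change minus the WT one), edgeR gave 0 of 36 genes, as did DESeq2 and limma-voom, beside 0% of all genes in edgeR, 1.17% in DESeq2 and 0.00489% in limma-voom. At an unadjusted p under 0.05 edgeR gave 2 (5.56%, beside 7.63%). The largest difference was that of Brip1, at -4.36 ± 1.46 (adjusted p = 0.607). Brip1 was at 2.93, 3.87 and 3.16 CPM in KO cisplatin saline samples, against 0.997, 3.2 and 4.16 CPM in KO naive samples, so the KO groups overlapped while the WT groups did not. For Brca2 the interaction was -1.32 ± 0.64 (adjusted p = 0.67), with 9.38, 14.2 and 27.9 CPM in KO cisplatin saline samples, against 17.3, 5.79 and 7.94 CPM in KO naive samples. For Chek1 it was -0.90 ± 0.70 (adjusted p = 0.856).

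**Figure D3:**
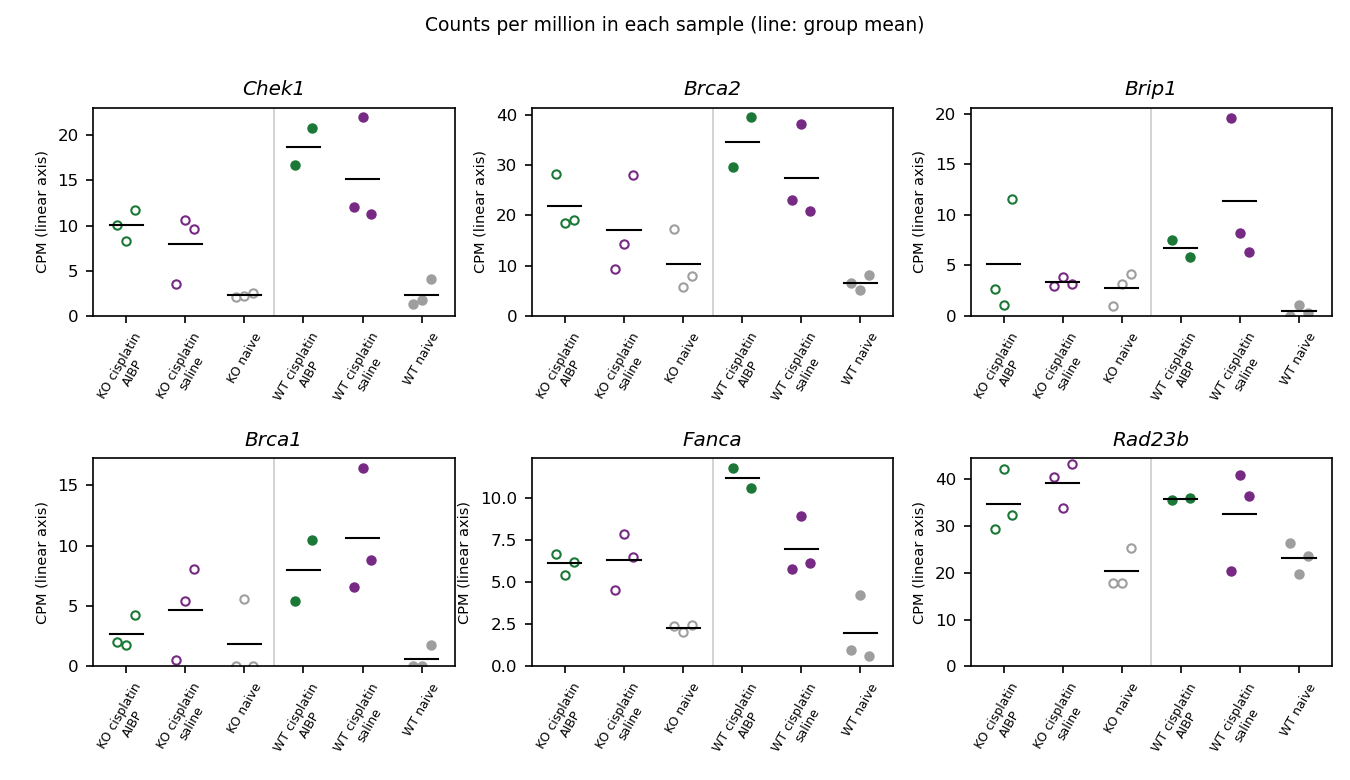
CPM in every sample (linear axis from 0) for Chek1, Brca2, Brip1, Brca1, Fanca and Rad23b, in KO (open) and WT (filled) samples of the cisplatin AIBP, cisplatin saline and naive groups, with lines at group means. WT samples after cisplatin stand above WT naive samples for Chek1, Brca2, Brip1, Brca1 and Fanca, and KO samples after cisplatin saline stand above KO naive samples for Chek1, Fanca and Rad23b.

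Intrathecal AIBP after cisplatin was compared with intrathecal saline after cisplatin to see whether it moved these genes. It moved none of the 36 past the threshold in either genotype: 0 of 36 in WT, beside 0% of all genes, and 0 of 36 in KO, beside 0.00977%. DESeq2 also gave 0 in both, beside 0.619% of all genes it tested in WT and 1.16% in KO. So did limma-voom, beside 0.0195% in WT and 0.0244% in KO. With edgeR 0 of the 36 had an unadjusted p under 0.05 in both, beside 3.71% of all genes in WT and 6.62% in KO. Median log2 differences over the 36 genes were 0.19 in WT, beside -0.03 over all genes, and 0.15 in KO, beside 0.

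The smallest p-values in WT were those of Ercc3 and Xpc. Ercc3, the XPB helicase of TFIIH, was at 35.7 and 16.9 CPM in WT cisplatin AIBP samples, against 14, 12.2 and 19.3 CPM in WT cisplatin saline samples (0.79 ± 0.41, adjusted p = 0.996). Xpc, the lesion sensor, was at 36 and 15 CPM in WT cisplatin AIBP samples, against 12.3, 15.2 and 18.1 CPM in WT cisplatin saline samples (0.75 ± 0.43, adjusted p = 0.996). AIBP sample 7 was the high one for both genes, and without it the Xpc difference was -0.03. In KO they were Ddb2 and Polh, the UV damage sensor partner of DDB1 and the polymerase that copies past crosslinked guanines. Ddb2 was at 11.4, 7.21 and 16 CPM in KO cisplatin AIBP samples, against 2.91, 7.8 and 8.17 CPM in KO cisplatin saline samples (0.87 ± 0.51, adjusted p = 0.73). Polh was at 3.66, 4.35 and 10 CPM in KO cisplatin AIBP samples, against 18.8, 7.3 and 10.9 CPM in KO cisplatin saline samples (-1.04 ± 0.61, adjusted p = 0.732). All 4 genes overlapped between the groups. Without overlap, 3 of 36 genes lay higher (Fanca, Tonsl and Msh6; 8.33%, beside 9.1% of all genes) and Xpa lower (2.78%, beside 9.14%) in WT, and none in KO, beside 4.17% higher and 4.43% lower. The AIBP responses of the genotypes differed for 0 of 36 genes in edgeR, DESeq2 and limma-voom. Of all genes, 0% passed in edgeR, 0.813% in DESeq2 and 0% in limma-voom. With edgeR 0 of the 36 had an unadjusted p under 0.05, beside 6.28% of all genes.

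The cisplatin AIBP groups were also set against naive mice, the same naive samples that the cisplatin saline comparisons use. Chek1 was at 16.7 and 20.8 CPM in WT cisplatin AIBP samples, above the WT naive values given earlier (2.99 ± 0.56, adjusted p = 0.0216). Brca2 was at 29.6 and 39.6 CPM in WT cisplatin AIBP samples (2.39 ± 0.50, adjusted p = 0.0342). Both groups lay clear of naive. These were 2 of 36 genes (5.56%), beside 1.06% of all genes that rose (1.25% in either direction). In edgeR 15 of the 36 had an unadjusted p under 0.05 (41.7%, beside 14.3% of all genes). By adjusted p DESeq2 gave 6 (16.7%, beside 8.95% of all genes it tested) and limma-voom 2 (5.56%, beside 0.997%). Brip1, at 7.54 and 5.84 CPM, missed the threshold here (3.85 ± 1.15, adjusted p = 0.129), and so did Fanca, at 11.8 and 10.6 CPM (2.51 ± 0.65, adjusted p = 0.0801). With 2 samples in the group, the Chek1 call was lost without WT naive sample 1 or 2 or either AIBP sample (adjusted p 0.0856 to 0.148), and the Brca2 call without any single sample of the comparison (0.0704 to 0.217). Without overlap, 16 of the 36 genes lay above naive (44.4%, beside 17% of all genes) and 3 below (Slx4, Ercc8 and Xpa; 8.33%, beside 16.3%).

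In the samples labelled KO cisplatin AIBP, Chek1 was at 10.1, 8.27 and 11.7 CPM, above all KO naive samples (2.13 ± 0.52, adjusted p = 0.0409). It was the only 1 of 36 to rise (2.78%, beside 1.81% of all genes, or 2.68% in either direction), and leaving out any single sample of either group put its adjusted p at 0.054 to 0.151. In edgeR 6 of the 36 had an unadjusted p under 0.05 (16.7%, beside 16.6% of all genes). By adjusted p DESeq2 gave 3 (8.33%, beside 11.3% of all genes it tested) and limma-voom 0 (beside 3.76%). Palb2, at 23.8, 14.5 and 14 CPM, did not overlap KO naive samples either (1.34 ± 0.41, adjusted p = 0.108). Without overlap 6 of 36 genes lay higher (Fanca, Brca2, Palb2, Rad23b, Ddb1 and Chek1; 16.7%, beside 10.1% of all genes) and none lower, beside 9.77%.

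Between genotypes, Tonsl stood out among the 36. It encodes a reader of newly replicated chromatin that, with MMS22L, helps recombination at broken forks (chr15:76626002-76639958, minus strand). It was at 9.59, 5.68 and 6.27 CPM in samples labelled KO cisplatin AIBP, against 22.5 and 18.9 CPM in WT cisplatin AIBP samples. After cisplatin saline it was at 4.22, 4.77 and 7.51 CPM in KO samples, against 14.9, 13.9 and 17.7 CPM in WT samples. In naive mice it was at 5.73, 3.46 and 4.24 CPM in KO samples, against 10.7, 10 and 7.85 CPM in WT samples. KO samples lay below WT samples without overlap in all 3 conditions.

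Within a condition edgeR did not call Tonsl: log2 differences (KO minus WT) were -1.53 ± 0.39 after cisplatin AIBP (adjusted p = 0.709), -1.49 ± 0.36 after cisplatin saline (0.218) and -1.09 ± 0.35 in naive mice (0.789). DESeq2 called it in each (adjusted p = 0.00101, 9.03e-05 and 0.0332 in the same order), and limma-voom in none. A comparison added after these values were seen averaged the genotype difference over the 3 conditions and gave -1.37 ± 0.21 for Tonsl (adjusted p = 0.0193). That was 1 of 36 genes (2.78%) lower, beside 0.0977% of all genes, and since the values chose the comparison its p is a description. It was lost without WT cisplatin AIBP sample 7 (0.106), WT cisplatin AIBP sample 9 (0.0887) or KO cisplatin saline sample 5 (0.0526), and from the naive and cisplatin saline groups alone it was -1.29 (adjusted p = 0.222).

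Tonsl counts were uneven between the technical libraries of a sample: in WT naive sample 2, 97% came from 1 of the 3 libraries, and in KO cisplatin saline sample 4, 98.7%. Leaving out technical replicate 1, 2 or 3 of every sample kept the averaged difference at -1.48 to -1.27 with adjusted p of 0.189 to 0.523. Of its exon bases 1.72% are shared with Vps28 on the same strand. Its partner Mms22l did not follow: averaged over the conditions it differed by 0.03 ± 0.29 (adjusted p = 1).

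**Figure D4:**
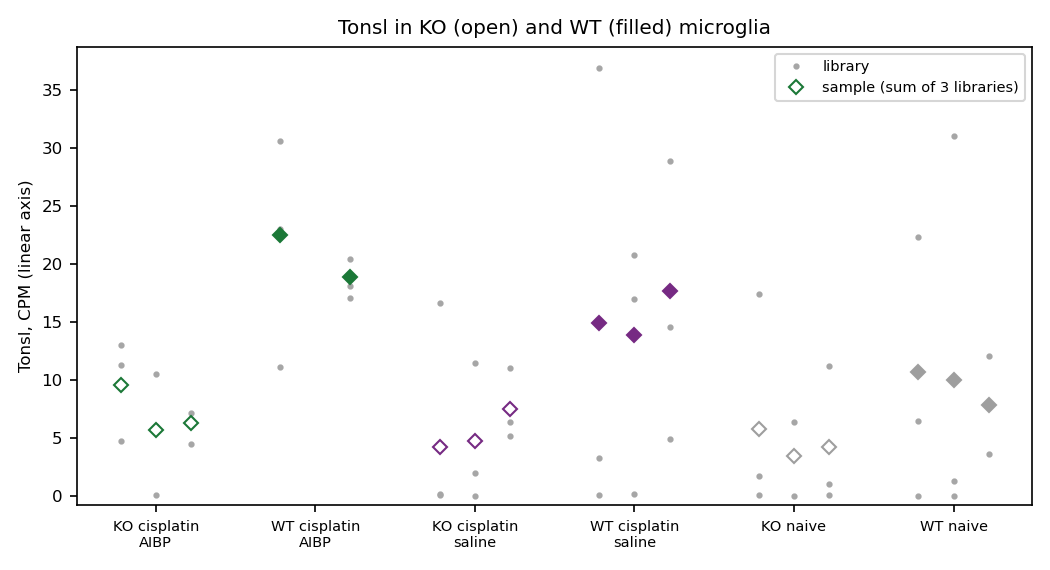
Tonsl in CPM (linear axis) for every sample, as diamonds that are open for KO and filled for WT, with the 3 technical libraries of each sample as small grey points. KO diamonds lie below WT diamonds in the cisplatin AIBP, cisplatin saline and naive groups, while single libraries range widely.

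The other genotype differences were smaller or less regular. No gene of the 36 passed in edgeR in any condition: 0 in the cisplatin AIBP groups (beside 0% of all genes), 0 in the cisplatin saline groups (beside 0.044%, of which 0.0195% higher and 0.0244% lower) and 0 in naive mice (beside 0.00489%). At an unadjusted p under 0.05 there were 2, 4 and 2 genes (5.56%, 11.1% and 5.56%, beside 6.35%, 8.98% and 5.96% of all genes). DESeq2 gave Tonsl alone each time (2.78%, beside 1.25%, 2.63% and 1.14% of all genes). With limma-voom it was 0 each time, beside 0.0586%, 0.127% and 0.00489% of all genes. Median log2 differences over the 36 genes were -0.34, -0.19 and 0.01 in the same order, beside 0.02, -0.01 and 0 over all genes.

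Msh6 was at 24.9, 21.8 and 24 CPM in samples labelled KO cisplatin AIBP, against 65 and 50.7 CPM in WT cisplatin AIBP samples, without overlap (-1.30 ± 0.37, adjusted p = 0.732). Ercc1, a subunit of the nuclease that cuts before the lesion, was at 18.3, 27.3 and 16.7 CPM in KO cisplatin saline samples, against 29.1, 27.7 and 46.3 CPM in WT cisplatin saline samples (-0.73 ± 0.26, adjusted p = 0.474). Those groups did not overlap, though KO sample 5 came within 1 CPM of the lowest WT sample. Brip1 stood the other way in naive mice, at 0.997, 3.2 and 4.16 CPM in KO naive samples and 0.0202, 1.03 and 0.334 CPM in WT naive samples (2.58 ± 1.05, adjusted p = 0.789), where KO sample 1 lay within the WT range. Genes lower in KO without overlap numbered 10 of 36 after cisplatin AIBP (27.8%, beside 11.4% of all genes), 7 after cisplatin saline (19.4%, beside 6.4%) and 3 in naive mice (8.33%, beside 4.14%). Higher without overlap were 1 after cisplatin AIBP (Ercc8; 2.78%, beside 10.8%), 0 after cisplatin saline (beside 6.1%) and 0 in naive mice (beside 5.49%).

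Another 88 genes of the same pathways, listed by function with earlier results of these data known, gave the wider picture. In WT cisplatin saline over naive, 5 of the 88 rose (5.68%, beside 1.95% of all genes) and 0 fell (beside 0.953%), with a median log2 fold change of 0.31. Mms22l rose by 2.89 ± 0.53 (adjusted p = 0.00959). Rpa2, a subunit of the single-strand binding protein RPA, rose by 2.26 ± 0.55 (0.0398), and Lig1, the ligase that seals replicated and repaired strands, by 1.90 ± 0.42 (0.0273). Tipin, which steadies replication forks, rose by 2.07 ± 0.31 (0.00369), and Mad2l2, a subunit of polymerase zeta alongside REV3L, by 1.22 ± 0.28 (0.0301). Most of the 88 did not pass, including 32 of the 33 other Fanconi and recombination genes.

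In KO cisplatin saline over naive, 4 of the 88 rose (4.55%, beside 2.42% of all genes) and 1 fell (1.14%, beside 1.99%). Tipin rose by 1.68 ± 0.31 (adjusted p = 0.0067), Lig1 by 1.64 ± 0.42 (0.0402), Mad2l2 by 1.13 ± 0.28 (0.0328) and Gtf2h5, a small TFIIH subunit, by 1.26 ± 0.29 (0.0227). H2afx, the histone variant phosphorylated at breaks, fell by 1.13 on the log2 scale (0.0356). Lig1 was also lower in KO than in WT on average over the 3 conditions (-1.43 ± 0.25, adjusted p = 0.0301), the only 1 of the 88 to pass there, again in the comparison added after values were seen. After cisplatin AIBP, against naive, Rpa2 (2.59 ± 0.59, adjusted p = 0.048), Lig1 (2.13 ± 0.46, 0.0365) and Tipin (2.28 ± 0.34, 0.00821) rose in WT. Ube2b, the ubiquitin-conjugating partner of RAD18, fell there (-0.84 ± 0.19, 0.048). In KO, Lig1 (2.6 ± 0.44, 0.00627), Tipin (1.71 ± 0.31, 0.00967) and Topbp1, an activator of ATR (1.65 ± 0.40, 0.042), rose.

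Genes of the dividing cell moved with the WT rises. Of 24 proliferation genes 7 rose (29.2%, beside 1.95% of all genes) and 0 fell in WT cisplatin saline over naive (median log2 fold change 2.25), among them Mcm3 at 1.54 ± 0.24, Mcm6 at 2.97 ± 0.50 and Top2a at 4.16 ± 0.77. In KO 1 rose (4.17%, beside 2.42%), Mcm2 (2.21 ± 0.59), and the median was 0.17. Summed, the 24 genes ran from 1690 to 1930 CPM in WT cisplatin AIBP, 1250 to 1700 CPM in WT cisplatin saline and 263 to 457 CPM in WT naive samples. In KO they ran from 743 to 1390 CPM in cisplatin AIBP, 481 to 919 CPM in cisplatin saline and 326 to 405 CPM in naive samples. Their part in the Chek1, Brca2 and Brip1 values was not tested. Of 13 tested p53 targets, edgeR called 0 after cisplatin saline in either genotype (beside 2.91% of all genes in WT, 4.41% in KO). At an unadjusted p under 0.05 there was 1 in WT (beside 17.6% of all genes) and 2 in KO (beside 18.1%). Summed, the 14 listed p53 targets ran from 452 to 563 CPM in WT cisplatin saline and 303 to 391 CPM in WT naive samples, without overlap. In KO they ran from 497 to 588 CPM in cisplatin saline and 420 to 664 CPM in naive samples, which overlap.

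Summed markers of other cells also differed between treated and naive samples, although few single markers passed the test. The 8 monocyte markers summed to 185 to 272 CPM in WT cisplatin AIBP, 238 to 1050 CPM in WT cisplatin saline and 3.82 to 61.7 CPM in WT naive samples. In KO they summed to 270 to 787 CPM in cisplatin AIBP, a median of 814 and a highest of 1210 CPM in cisplatin saline and 4.16 to 20.1 CPM in naive samples. After cisplatin saline 1 of the 8 rose in KO and 0 in WT. The 7 border macrophage markers spanned 0.667 to 150 CPM in WT cisplatin saline and 0.142 to 4.63 CPM in WT naive samples, which overlap, with Lyve1 at 0 in both. In KO they spanned 21.6 to 35.6 CPM in cisplatin saline and 6.03 to 8.94 CPM in naive samples, without overlap. Neutrophil markers reached 22.9 CPM in WT cisplatin saline and 0.0178 CPM in WT naive samples, with Ly6g and S100a9 at 0 in both. In KO they summed to 1.7 to 5.99 CPM in cisplatin saline and 0.0482 to 0.634 CPM in naive samples. These sums did not overlap in either genotype. None of the 5 border macrophage or 3 neutrophil markers tested passed in either genotype.

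Summed markers of microglia and of 3 other spinal cord cell types were at lower levels after cisplatin saline than in naive samples, with overlap only for astrocytes and oligodendrocytes in WT. The 11 microglia markers summed to 21100 to 24800 CPM in KO cisplatin saline and 42000 to 54200 CPM in KO naive samples, and 9 of them fell. In WT they summed to 30100 to 38200 CPM in cisplatin saline and 53200 to 60800 CPM in naive samples, and 4 fell. The 5 endothelial markers summed to 0.666 to 10.6 CPM in KO cisplatin saline and 16 to 41.9 CPM in KO naive samples, and to 8.15 to 11.1 CPM in WT cisplatin saline and 22.6 to 35.7 CPM in WT naive samples, with 0 of 3 tested called in either. The 6 astrocyte markers summed to 144 to 172 CPM in KO cisplatin saline and 246 to 366 CPM in KO naive samples (0 called), and to 132 to 298 CPM in WT cisplatin saline and 297 to 404 CPM in WT naive samples (1 fell). The 6 oligodendrocyte markers summed to 226 to 336 CPM in KO cisplatin saline and 464 to 796 CPM in KO naive samples (1 fell), and to 255 to 598 CPM in WT cisplatin saline and 597 to 906 CPM in WT naive samples (0 called). The 5 neuron markers overlapped in both genotypes. They summed to 0.199 to 3.39 CPM in KO cisplatin saline and 1.9 to 4.19 CPM in KO naive samples. In WT they summed to 6.08 to 9.28 CPM in cisplatin saline and 3.1 to 15.5 CPM in naive samples. The part of these other cells, and of the markers above, in the repair gene values was not tested.

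**Figure D5:**
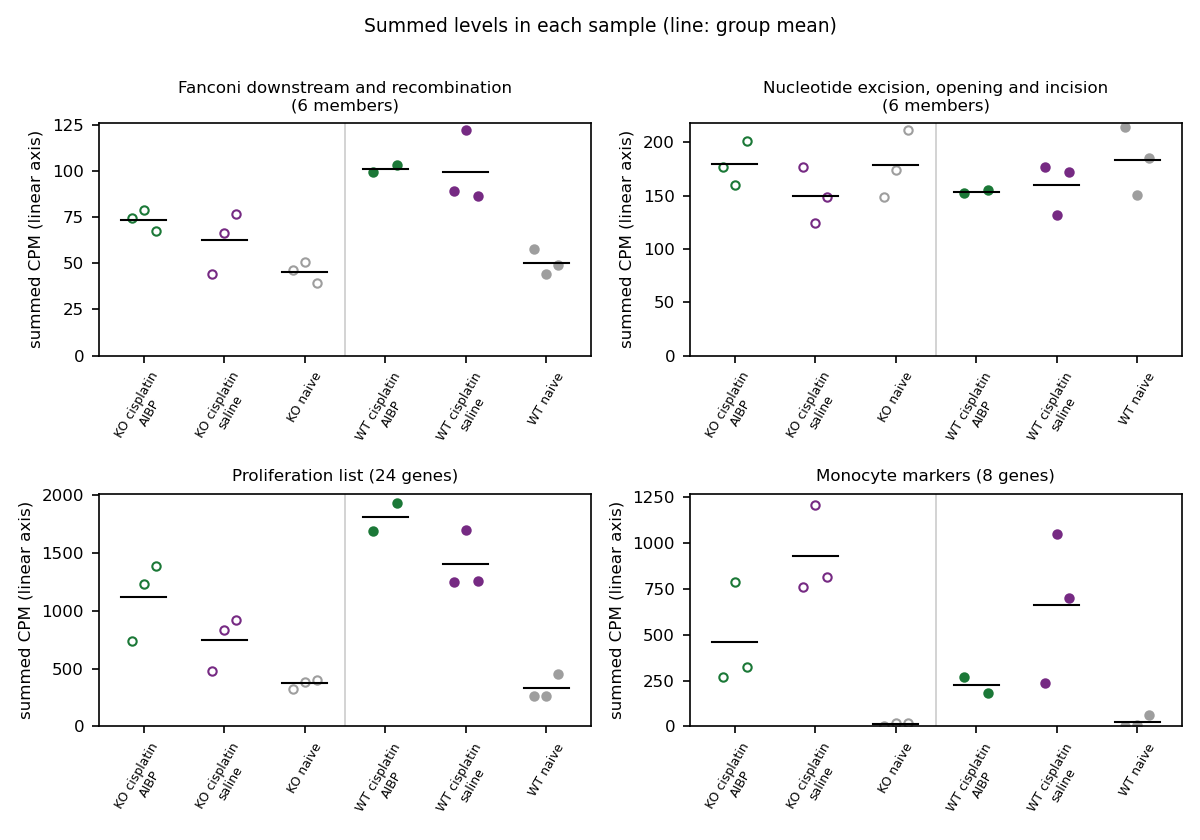
Summed CPM per sample (linear axes from 0) of the 6 Fanconi downstream genes, the 6 opening and incision genes, 24 proliferation genes and 8 monocyte markers, in KO (open) and WT (filled) groups, with lines at group means. The downstream and proliferation sums are highest in WT after cisplatin, the opening and incision sums overlap between treated and naive groups, and the highest monocyte sums, 1210 and 1050 CPM, are those of sample 5 of KO and of WT cisplatin saline.

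The counting of some of the 36 genes could mix in reads of neighbours, since the strand setting is not given in the sources used here. Of the 36, 19 share exon bases with another annotated gene and 16 of these with a gene on the opposite strand. The largest part shared with any single gene was 26.6% of exon bases for Rev1 (with Eif5b). For Ercc2 it was 24.6% (with Gm26852) and for Ddb2 23.8% (with Acp2). It was 16.4% for Fancc, 16% for Fanci, 13.7% for Fancl, 10.5% for Fanca (with Zfp276), 0.301% for Brca2 and 0 for Brip1. Ercc2 also shared 17.8% with Klc3, and Fancc 2.21% with 2010111I01Rik.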

How the data were processed

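Libraries were made from poly(A) RNA of sorted microglia by PCR-amplified cDNA and Nextera XT and read as paired ends, per the labels' protocols. The submitters' processing notes name STAR 2.6.0a, DESeq2, bcl2fastq, MultiQC 1.7 and FastQC 0.11.17, with build GRCm38. How reads were counted, and with which strand setting, is not given in the sources used here. For 102 runs the authors deposited raw counts of 53715 genes, and a normalized signal table of 18856 genes that equals the deposited counts divided by a size factor per run (0.437 to 1.62); it served to find symbols. Runs of a numbered sample (3 technical libraries on 2 lanes) were summed, so p-values measure the spread between 17 numbered samples. PCR copies are not independent molecules.

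edgeR 4.0.16 (R 4.3.3; TMM factors 0.885 to 1.11, filterByExpr, a model of 6 group means, 11 residual df, BCV 0.922) gave quasi-likelihood tests, two-sided, adjusted by Benjamini-Hochberg over 20461 genes at a threshold of 0.05. Every adjusted p comes from it unless DESeq2 1.42.0 or limma 3.58.1 is named. The script was tested on simulated data. CPM use TMM-scaled totals, and CPM per kb divide by the union of exons in GENCODE M21. A group of samples does not overlap another when every value lies to one side. Promoters are from RefSeq.

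Named genes were those past the threshold, those with the smallest p of each class in the cisplatin saline comparisons and the 2 smallest in each AIBP or genotype comparison, and the highest and lowest level. Brca1 and a few examples outside this rule were chosen after their values were seen. The members and gene lists were chosen with earlier results of these data known, and the genotype difference averaged over the 3 conditions, with its restriction to naive and cisplatin saline groups, was added after the values were seen. WT and KO samples share numbers, but no pairing by number was found (correlations of their deviations -0.08 to 0.03). Such correlations cannot exclude a weak pairing. Alternatives were another normalization, other filters, fits on the compared groups only, single samples or technical replicates left out, replicate blocks, DESeq2 and limma-voom.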

Additional observations from a re-analysis of the deposited data

How the results depend on the processing

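The number of the 36 genes called depended on the tool and on single samples. For WT cisplatin saline over naive (3 as reported) it was 5 with DESeq2, 0 in a fit of only the groups compared, 0 without WT cisplatin saline samples 5 and 6 (the 1 sample left is assumed to vary like the other groups, so this loss says little), and 0 to 2 with any single sample or technical replicate left out. For KO cisplatin saline over naive (0) it was 2 with the stricter filter (a mean of 2 CPM), 3 with DESeq2 and 0 to 1 with one left out. For WT cisplatin AIBP over naive (2) it was 4 with the stricter filter, 1 in the fit of only its groups, 6 with DESeq2 and 0 to 1 with one left out. For KO cisplatin AIBP over naive (1) it was 0 with no filter, 2 with the stricter filter, 0 in the fit of only its groups, 0 with limma-voom, 3 with DESeq2 and 0 with any one left out. KO against WT (0 in each condition) gave 1 in each with DESeq2. The genotype difference averaged over conditions, a comparison chosen after seeing the data (1), gave 0 without WT cisplatin saline samples 5 and 6, 0 from naive and cisplatin saline groups only (also chosen after seeing the data), 2 with DESeq2 and 0 to 1 with one left out. DESeq2 called 8.95% to 13.3% of all genes it tested in the comparisons with naive, and 3.66% in the averaged genotype comparison. In KO cisplatin AIBP over naive limma-voom called 3.76% of all genes. The AIBP against saline comparisons and both interactions stayed at 0 under every alternative run.

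WT and KO samples share numbers, but no pairing by number was found. With the sample number as a replicate block the averaged genotype comparison gave 0 genes (Tonsl -1.35, adjusted p = 0.317), and the single conditions and interactions stayed at 0. With the technical replicate number as a replicate block (limma-voom on 51 libraries) the counts were 5 for WT cisplatin saline over naive and 1 for KO. They were 4 for WT cisplatin AIBP over naive and 0 for the averaged genotype comparison. In that fit the correlation between libraries of a sample was only 0.0672, so they counted almost as separate observations. Its counts, and those with the stricter filter, are given without the share of all genes called. Such counts cannot tell a change in the repair genes from more calls among all genes, and are not stronger results for them.

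Among single named genes 439 recomputed values kept direction and side of the threshold, 66 lost the call, 12 gained it and 4 changed sign: Xpc in WT cisplatin AIBP over saline (-0.03 without WT cisplatin AIBP sample 7, up to 1.25 without sample 9), Ercc1 (-0.97 to 0.10 with a technical replicate or sample left out) and Msh6 (-0.17 to 0.82 likewise) in KO cisplatin saline over naive, and Ercc5 in WT (0.06 without cisplatin saline samples 5 and 6). None of these 4 was called, and the cause of the moves was not tested. Few samples per group, a biological coefficient of variation of 0.922 and low counts of Fanci, Fancd2, Brca1 and Brip1 limit what these comparisons can show.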
